A study of Mus musculus with 4 samples.

Results

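The genes described here are 49 nucleolar ribosome biogenesis factors, measured by RNA-seq in single chimeric mouse embryos that carried 1 of 2 forms of the transcription factor LHX1. They were taken from a fixed list of symbols, matched to the Ensembl identifiers of the deposited count tables, and all 49 were found among 39179 annotated genes. All 49 also passed the filter on low counts, which left 15822 genes in the test. The list was drawn up with results of the same comparison in view, so calls and adjusted p-values of its members below are read from a fit across all genes and describe the members without testing the list. The members comprised 6 genes for RNA polymerase I and its cofactor, and 3 for box C/D and 5 for box H/ACA small nucleolar ribonucleoproteins (snoRNPs). A further 5 were nucleolar proteins labelled abundant, 16 were factors of the small ribosomal subunit and 14 of the large subunit.

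The tested embryos held embryonic stem cells with a doxycycline-inducible FLAG-tagged LHX1 (FLAG-Lhx1, n = 2), and the embryos they were set against held cells with an inducible altered form (FLAG-Lhx1-mt, n = 2). The labels do not say what the altered form lacks. In both groups the cells had been kept in 2i medium, which holds stem cells in a naive state, and were injected into host embryos at the 8-cell stage from a cross of ARC and RLZRFP mice. All mothers received doxycycline at 2 mg/mL with 5% sucrose in drinking water for 24 h, so both forms were induced and no uninduced embryo entered the comparison. Collection was at E8.5, when the embryos had reached the stage of E7.75, and each library came from 1 whole embryo, amplified over 10 preamplification cycles. Each chimera also kept host cells, whose RNA cannot be told apart from that of the injected cells in these counts. In bulk RNA, fewer cells of a type and less RNA per cell cannot be told apart either. The labels call the 4 samples individual embryos and do not say whether they came from separate litters.

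Ribosomes are built mainly in the nucleolus. RNA polymerase I transcribes the precursor of the 18S, 5.8S and 28S ribosomal RNAs, snoRNPs direct the chemical modification and some of the cleavage of that precursor, and large sets of assembly factors fold, trim and export the small and large subunits. Demand for the pathway follows cell growth, and the epiblast of the gastrulating mouse embryo is among the fastest dividing mammalian tissues.

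The libraries held 25272436 and 21267116 counts in FLAG-Lhx1 embryos, against 23088545 and 30434442 counts in FLAG-Lhx1-mt embryos, and 3 counts in a library corresponded to between 0.0959 and 0.153 CPM, counts per 1000000 counts of a library. Lhx1 itself stood at 129 and 114 CPM in FLAG-Lhx1 embryos, against 126 and 98.5 CPM in FLAG-Lhx1-mt embryos (log2 fold 0.11 ± 0.16 SE, adjusted p = 0.733, edgeR), and counts per gene do not separate transgene from endogenous transcripts. Across all tested genes 976 were called at an adjusted p under 0.05 (6.17%), 415 of them higher and 561 lower in FLAG-Lhx1 embryos. Markers of several cell types moved with the groups. The summed level of 15 visceral endoderm markers was 2675 and 3059 CPM in FLAG-Lhx1 embryos, against 5148 and 4677 CPM in FLAG-Lhx1-mt embryos, with 7 markers called lower and none higher by edgeR (13 at an unadjusted p under 0.05, all lower, with 10 called lower by DESeq2 and 8 by voom). That of 10 epiblast markers was 863 and 649 CPM in FLAG-Lhx1, against 1152 and 1668 CPM in FLAG-Lhx1-mt, with 7 lower and 1 higher. That of 10 neural plate markers was 203 and 214 CPM in FLAG-Lhx1, against 51.8 and 37.1 CPM in FLAG-Lhx1-mt, with 5 of the 8 tested higher. That of 10 mesoderm markers was 303 and 321 CPM in FLAG-Lhx1, against 521 and 443 CPM in FLAG-Lhx1-mt, with 3 lower and 4 higher. Summed trophoblast markers were at 51.8 and 62.0 CPM in FLAG-Lhx1, against 52.3 and 56.6 CPM in FLAG-Lhx1-mt, and summed blood markers at 3.85 and 5.04 CPM in FLAG-Lhx1, against 3.61 and 8.44 CPM in FLAG-Lhx1-mt. Summed decidual markers were at 3.36 and 3.61 CPM in FLAG-Lhx1, against 4.38 and 4.03 CPM in FLAG-Lhx1-mt. No marker in these lists was at 0 in all libraries, and the part of cell composition in the results below was not tested.

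Most of the ribosome biogenesis factors had a lower mean level in FLAG-Lhx1 embryos, by a modest amount. The log2 fold of FLAG-Lhx1 over FLAG-Lhx1-mt was negative for 45 of the 49 members (91.8%, against 49.1% of all tested genes), with a median of -0.30 against 0.01 for all tested genes and a range of -0.76 to 0.25. With edgeR's quasi-likelihood test, adjusted over all tested genes, 8 members were called lower (16.3%, against a background of 6.17% of all tested genes called in either direction and 3.55% called lower) and 41 were not called. None was called higher by edgeR, DESeq2 or voom (background 2.62%), and all 21 members with an unadjusted p under 0.05 were lower. Because the list was chosen from this contrast, nothing is read from its share of calls. In 36 members both FLAG-Lhx1 embryos lay below both FLAG-Lhx1-mt embryos, a pattern held by 25.8% of all tested genes. Npm1 and Ddx10 had both FLAG-Lhx1 embryos above both others, as had 26.4% of all tested genes, and in 11 members the groups overlapped. With groups of 2 embryos, the smallest p of an exact permutation test on 1 gene is 0.333.

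The calls depended on single embryos. Without FLAG-Lhx1 replicate 2 no member was called by edgeR, DESeq2 or voom (13 lower at an unadjusted p under 0.05), and edgeR called 3.1% of all tested genes. Without FLAG-Lhx1 replicate 1 Rrp9 and Rrp36 were called, with 3.73% of all tested genes. Without FLAG-Lhx1-mt replicate 1 or 2, 8 and 10 members were called, with 9.56% and 9.16% of all tested genes, so the background moved as well. With upper-quartile scaling, which moved the median of all tested genes to 0.06, 3 members were called (Rrp9, Rrp36 and Ddx47), with 5.48% of all tested genes. The median log2 fold of the members stayed between -0.35 and -0.22 in the fits with 1 embryo left out. In all 4 of them 39 of the 49 members kept their sign, and the share of all tested genes that did so is not given here.

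**Figure D1:**
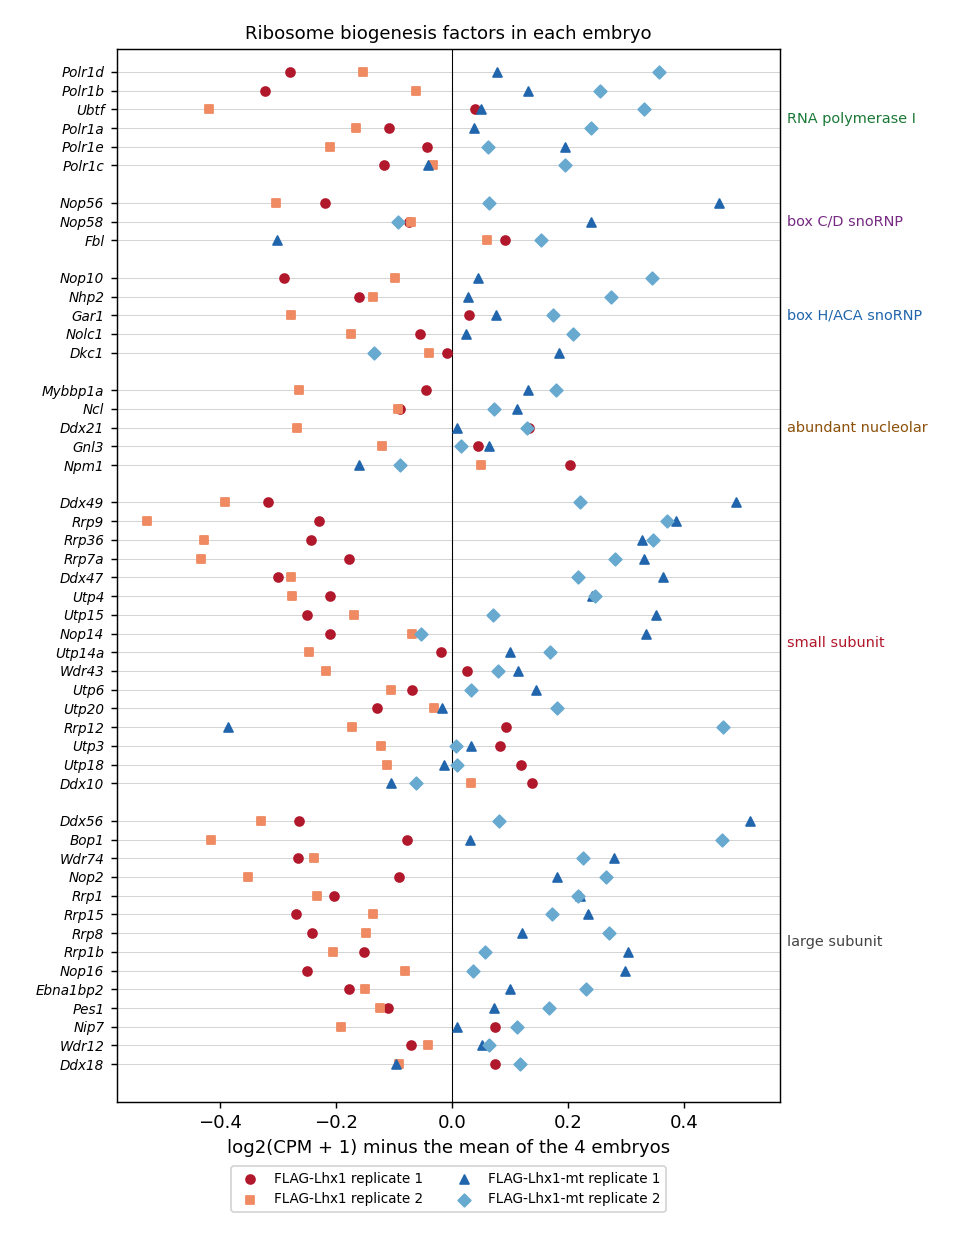
Each line is 1 of the 49 factors, grouped by role, and each symbol is 1 embryo. The horizontal axis is log2(CPM + 1) minus the mean of the 4 embryos. In 36 factors both FLAG-Lhx1 symbols (red circle and orange square) lie left of both FLAG-Lhx1-mt symbols (blue triangle and diamond), and Npm1 and Ddx10 show the opposite order.

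For the median member, both embryos of a group lay on the same side of the mean, to unequal degrees. The median member lay 0.11 and 0.17 log2 units below its 4-embryo mean in the FLAG-Lhx1 embryos, and 0.11 and 0.17 above it in the FLAG-Lhx1-mt embryos. The lowest of the 4 embryos was FLAG-Lhx1 replicate 1 for 15 members and replicate 2 for 27, against 5 and 2 members for the FLAG-Lhx1-mt replicates. Of all tested genes, 24.1% and 24% were lowest in FLAG-Lhx1 replicates 1 and 2, and 25.5% and 26.4% in the FLAG-Lhx1-mt replicates. Without FLAG-Lhx1 replicate 2 the median log2 fold of the members was -0.22, against -0.30 with all embryos. Replicates were also close to each other for these genes: the median size of the difference between replicates was 0.13 log2 units in both groups, while for all tested genes it was 0.19 for the FLAG-Lhx1 pair and 0.22 for the FLAG-Lhx1-mt pair. The difference between the group means was larger than both replicate differences in 33 of the 49 members (67.3%), against 39.1% of all tested genes. Because the list was chosen from this contrast, nothing is read from that share. Members and all tested genes were not matched for level, so their replicate differences are not directly comparable.

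Levels were compared between genes as CPM per kilobase of the representative transcript, averaged over the 4 embryos. They spanned from 3250 CPM per kb for Npm1 to 3.35 CPM per kb for Polr1a. Npm1, whose product nucleophosmin is a histone and ribosome chaperone of the outer nucleolus, was followed by the H/ACA core genes Nhp2 at 759 and Nop10 at 424 CPM per kb, and these 3 did not overlap each other or the next gene in any embryo. Polr1c and Gnl3 came next at 206 and 187 CPM per kb and overlapped, with ranges over the embryos of 189 to 235 and 172 to 195. At the low end stood Ubtf at 5.84, Utp20 at 5.53 and Rrp12 at 4.52 CPM per kb, which also overlapped. The same 3 genes led, and Polr1a was again lowest, when the length of all annotated exons was used in place of the representative transcript. Npm1 made up so much of the total that the summed CPM of the members, at 13499.3 and 12678.8 in FLAG-Lhx1 embryos against 13424.1 and 13768.9 in FLAG-Lhx1-mt embryos, hardly followed the other members.

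RNA polymerase I genes had negative log2 folds in all 6 cases, with a median of -0.33, and none was called by edgeR, DESeq2 or voom (2 at an unadjusted p under 0.05, both lower). Polr1a, which encodes the largest subunit, had 28.4 and 27.3 CPM in FLAG-Lhx1 embryos, against 31.6 and 36.4 CPM in FLAG-Lhx1-mt embryos (log2 fold -0.29 ± 0.17 SE). Polr1b, for the second largest subunit, had 33.8 and 40.7 CPM in FLAG-Lhx1, against 46.7 and 50.9 CPM in FLAG-Lhx1-mt (-0.39 ± 0.16). Polr1d, whose product is shared by RNA polymerases I and III, had 135 and 147 CPM in FLAG-Lhx1, against 173 and 210 CPM in FLAG-Lhx1-mt (-0.44 ± 0.15, adjusted p = 0.0915). In these 3 genes, and also in Polr1e and Ubtf, the FLAG-Lhx1 embryos lay below both FLAG-Lhx1-mt embryos, as in 25.8% of all tested genes. Ubtf encodes UBF, the factor that binds ribosomal DNA and keeps its chromatin open, and had 27.7 and 19.9 CPM in FLAG-Lhx1, against 27.9 and 34.1 CPM in FLAG-Lhx1-mt (-0.38 ± 0.20), so its first FLAG-Lhx1 embryo sat next to the nearest FLAG-Lhx1-mt embryo. Polr1c, for the other subunit shared with RNA polymerase III, overlapped between groups at 249 and 264 CPM in FLAG-Lhx1, against 263 and 309 CPM in FLAG-Lhx1-mt.

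The box C/D snoRNP, which guides 2′-O-methylation of ribosomal RNA, was uneven among its 3 members. Nop56, a core protein of the particle, had 278 and 263 CPM in FLAG-Lhx1 embryos, against 447 and 339 CPM in FLAG-Lhx1-mt embryos, without overlap. Its log2 fold of -0.54 ± 0.16 SE had an adjusted p of 0.0545, the closest to the threshold among members not called by edgeR. DESeq2 (adjusted p = 0.0185) and voom (adjusted p = 0.0466) did call it lower. Its paralogue Nop58, which pairs with it in the particle, overlapped at 261 and 262 CPM in FLAG-Lhx1, against 324 and 257 CPM in FLAG-Lhx1-mt (-0.16 ± 0.15). Fbl, for the methyltransferase fibrillarin, had 112 and 109 CPM in FLAG-Lhx1, against 84.7 and 117 CPM in FLAG-Lhx1-mt (0.13 ± 0.16), and both FLAG-Lhx1 embryos lay between the FLAG-Lhx1-mt embryos. Transcripts of other genes that resemble Fbl over at least 300 bases at 95% identity held counts equal to 14.1% of its own, so its value is less certain.

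The box H/ACA snoRNP, which converts uridine to pseudouridine, had no called member among 5 by edgeR, DESeq2 or voom (1 at an unadjusted p under 0.05, lower), and a median log2 fold of -0.26. Nhp2 had 702 and 713 CPM in FLAG-Lhx1 embryos, against 800 and 948 CPM in FLAG-Lhx1-mt embryos (-0.31 ± 0.15). Nop10 had 379 and 433 CPM in FLAG-Lhx1, against 478 and 589 CPM in FLAG-Lhx1-mt (-0.39 ± 0.15, adjusted p = 0.150). Both of these small core proteins had non-overlapping groups, as had 25.8% of all tested genes in this direction. Gar1 did too, at 13.4 and 10.6 CPM in FLAG-Lhx1, against 13.9 and 14.9 CPM in FLAG-Lhx1-mt. So did Nolc1, the snoRNP chaperone Nopp140, at 180 and 166 CPM in FLAG-Lhx1, against 190 and 217 CPM in FLAG-Lhx1-mt. Dkc1, for the pseudouridine synthase dyskerin, overlapped at 348 and 340 CPM in FLAG-Lhx1, against 398 and 318 CPM in FLAG-Lhx1-mt (-0.06 ± 0.15).

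The role labelled abundant nucleolar proteins had the median log2 fold nearest to 0 of the 6 roles, -0.12, but that order depended on the fit. With length offsets its median was -0.23, against -0.03 for box C/D and -0.13 for box H/ACA. With length and GC offsets the medians were -0.27, -0.15 and -0.11 in the same order. No member was called by edgeR, DESeq2 or voom (0 at an unadjusted p under 0.05). The label does not follow the levels measured here, since Ddx21 ranked 27 and Mybbp1a 34 of the 49 members by CPM per kb. Npm1 had 6078 and 5467 CPM in FLAG-Lhx1 embryos, against 4724 and 4962 CPM in FLAG-Lhx1-mt embryos, without overlap and with the highest log2 fold of the list (0.25 ± 0.16 SE, adjusted p = 0.400). Ncl, for nucleolin, which binds nascent ribosomal RNA, had 915 and 912 CPM in FLAG-Lhx1, against 1052 and 1024 CPM in FLAG-Lhx1-mt (-0.18 ± 0.14). Mybbp1a, a Myb-binding nucleolar protein, had 84.3 and 72.2 CPM in FLAG-Lhx1, against 95.3 and 98.5 CPM in FLAG-Lhx1-mt (-0.31 ± 0.15, adjusted p = 0.241). Gnl3, the GTPase nucleostemin, and Ddx21, an RNA helicase, overlapped between groups.

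Small subunit factors act in the processome that forms on the nascent 18S precursor. They held 6 of the 8 called members, with a median log2 fold of -0.28 over 16 genes. Of these genes 37.5% were called, against 6.17% of all tested genes called and 3.55% called lower. Voom called 5 of them, and edgeR with length offsets called 2. Nothing is read from this share, since the list was chosen from this contrast. Rrp9, which binds the U3 snoRNA, had 39.5 and 32.0 CPM in FLAG-Lhx1 embryos, against 61.0 and 60.4 CPM in FLAG-Lhx1-mt embryos, a level 41.1% lower (log2 fold -0.76 ± 0.16 SE, adjusted p = 0.0128). Rrp36, required in yeast for early cleavages of the precursor, had 42.7 and 37.4 CPM in FLAG-Lhx1, against 64.0 and 64.8 CPM in FLAG-Lhx1-mt (-0.68 ± 0.15, adjusted p = 0.017). Ddx47, a DEAD-box helicase, had 59.9 and 60.8 CPM in FLAG-Lhx1, against 95.5 and 86.1 CPM in FLAG-Lhx1-mt (-0.59 ± 0.15, adjusted p = 0.0264). In each of these 3 genes the distance between the groups was several times that between replicates.

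The other 3 called small subunit genes were nearer the threshold. Utp4, also known as cirhin and part of the complex that first binds the precursor, had 129 and 123 CPM in FLAG-Lhx1 embryos, against 177 and 178 CPM in FLAG-Lhx1-mt embryos (-0.49 ± 0.14, adjusted p = 0.0471). Rrp7a had 32.7 and 27.3 CPM in FLAG-Lhx1, against 47.0 and 45.4 CPM in FLAG-Lhx1-mt (-0.62 ± 0.17, adjusted p = 0.0395). Ddx49, another DEAD-box helicase, had the fewest reads of the 8. It had 11.0 and 10.4 CPM in FLAG-Lhx1, against 20.1 and 16.5 CPM in FLAG-Lhx1-mt (-0.76 ± 0.22, adjusted p = 0.0481). It was not called by voom (adjusted p = 0.0529) or by edgeR with a replicate block (adjusted p = 0.0567). Exons of Ddx49 overlap those of Homer3 on the other strand over 29.8% of their length, and exons of Rrp7a overlap Serhl over 12.5%. Whether the counting used strand is not stated, so both values are uncertain.

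Among the 10 small subunit genes that were not called, Utp15, which sits in the same complex as Utp4, had 55.8 and 59.1 CPM in FLAG-Lhx1 embryos, against 85.2 and 69.9 CPM in FLAG-Lhx1-mt embryos (-0.43 ± 0.15, adjusted p = 0.114). Nop14, Utp14a, Wdr43, Utp6 and Utp20 also had both FLAG-Lhx1 embryos below both others, as had 25.8% of all tested genes. Their log2 folds lay between -0.30 and -0.17. Utp20, a very large scaffold protein, was at 44.3 and 47.5 CPM in FLAG-Lhx1, against 48.0 and 55.2 CPM in FLAG-Lhx1-mt. Rrp12, an export factor, had the widest spread, at 20.5 and 16.8 CPM in FLAG-Lhx1, against 14.4 and 26.8 CPM in FLAG-Lhx1-mt. Utp3 and Utp18 had log2 folds of -0.04 and 0.01 with overlapping groups. Ddx10, a helicase, ran the other way at 91.4 and 84.9 CPM in FLAG-Lhx1, against 77.0 and 79.5 CPM in FLAG-Lhx1-mt (0.17 ± 0.14, adjusted p = 0.537).

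Large subunit factors had the most negative median of the roles, -0.38 over 14 genes, but that order depended on the fit. With length offsets RNA polymerase I genes were lowest, at -0.37 against -0.34 for large subunit factors. With length and GC offsets small subunit factors were lowest, at -0.35 against -0.30. Both FLAG-Lhx1 embryos were below both FLAG-Lhx1-mt embryos in 12 of the 14 large subunit genes, a pattern held by 25.8% of all tested genes. Wdr74, a WD-repeat protein needed for early large subunit maturation, had 144 and 146 CPM in FLAG-Lhx1 embryos, against 210 and 202 CPM in FLAG-Lhx1-mt embryos, with a log2 fold of -0.51 ± 0.14 SE (adjusted p = 0.0409). Ddx56, a helicase of the same pathway, had 89.7 and 85.7 CPM in FLAG-Lhx1, against 155 and 114 CPM in FLAG-Lhx1-mt (-0.61 ± 0.16, adjusted p = 0.0349). Its groups did not overlap, although the FLAG-Lhx1-mt embryos differed widely from each other. These 2 were the large subunit members called by edgeR (14.3%, against 6.17% of all tested genes) and by voom, while DESeq2 also called Rrp1.

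Pes1, Bop1 and Wdr12 form the PeBoW complex, which is required to process the 28S precursor. Bop1 had 41.4 and 32.6 CPM in FLAG-Lhx1 embryos, against 44.7 and 60.8 CPM in FLAG-Lhx1-mt embryos (-0.51 ± 0.18, adjusted p = 0.118). Pes1 had 56.1 and 55.5 CPM in FLAG-Lhx1, against 63.8 and 68.2 CPM in FLAG-Lhx1-mt (-0.24 ± 0.15). Wdr12 had 250 and 255 CPM in FLAG-Lhx1, against 272 and 275 CPM in FLAG-Lhx1-mt (-0.11 ± 0.14). All 3 had non-overlapping groups, as had 25.8% of all tested genes in this direction. None passed the threshold, and their log2 folds spread from -0.51 to -0.11. Nop2, a methyltransferase of the 28S RNA and a proliferation antigen, had 57.1 and 47.5 CPM in FLAG-Lhx1, against 69.1 and 73.4 CPM in FLAG-Lhx1-mt (-0.45 ± 0.15). Rrp1, Rrp15, Rrp8, Rrp1b, Nop16 and Ebna1bp2 lay between -0.44 and -0.33 with no overlap. Nip7 and Ddx18 overlapped, with log2 folds of -0.11 and -0.02.

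**Figure D2:**
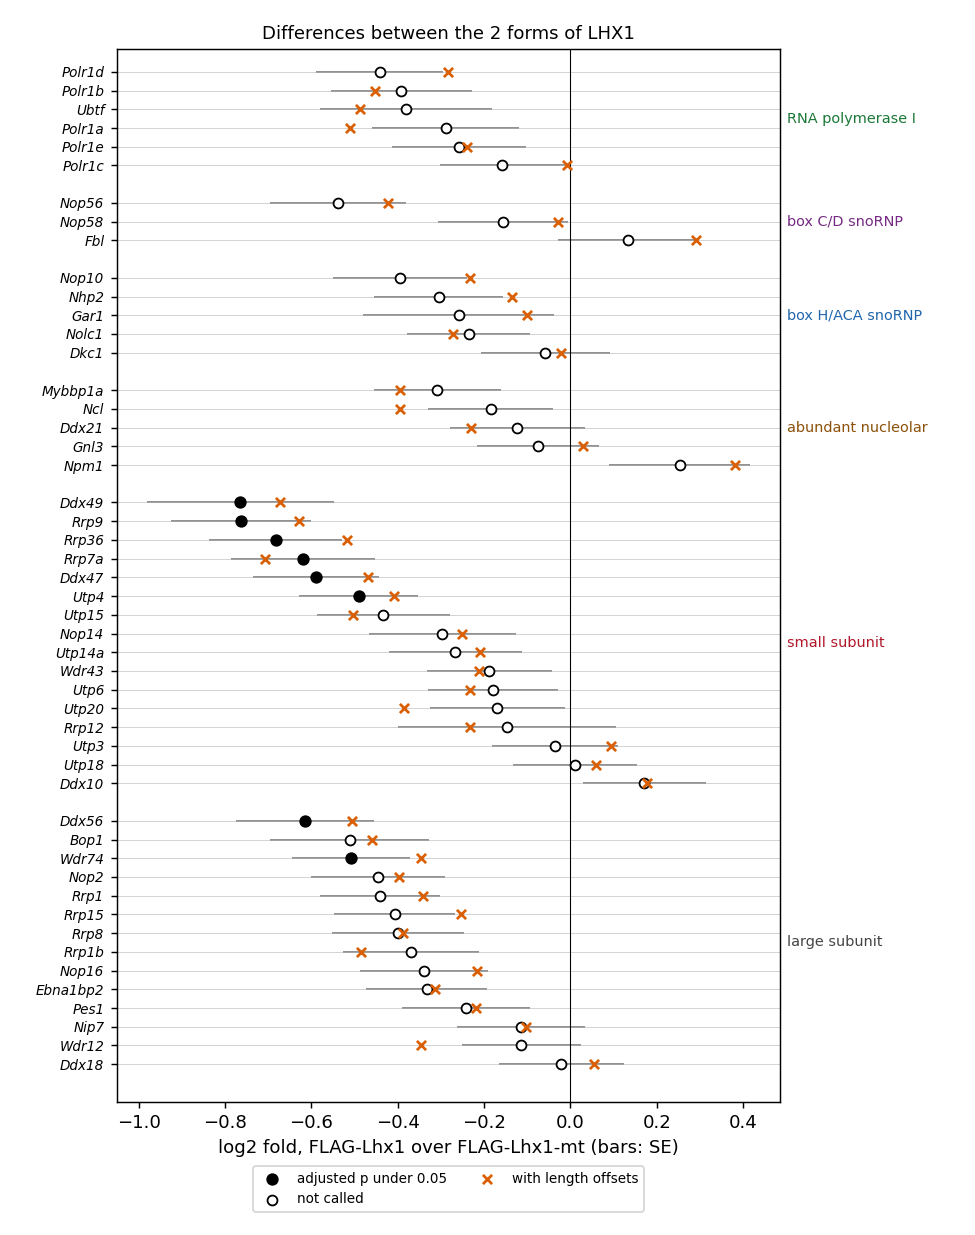
The horizontal axis is the log2 fold of FLAG-Lhx1 over FLAG-Lhx1-mt for each of the 49 factors, with bars of 1 SE. Filled circles mark the 8 members with an adjusted p under 0.05 and orange crosses the log2 fold refitted with length offsets. Most points lie left of 0 with either fit, and Npm1 lies farthest right among the circles.

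In the GENCODE vM21 annotation of GRCm38, the called small subunit genes were Rrp9 (ENSMUSG00000041506) at chr9:106475963-106485424 on the plus strand, Rrp36 (ENSMUSG00000023971) at chr17:46666324-46674352 on the minus strand, Ddx47 (ENSMUSG00000030204) at chr6:135011612-135023776 on the plus strand. The other 3 were Utp4 (ENSMUSG00000041438) at chr8:106893636-106923088 on the plus strand, Rrp7a (ENSMUSG00000018040) at chr15:83113433-83122801 on the minus strand, Ddx49 (ENSMUSG00000057788) at chr8:70292866-70302489 on the minus strand. The called large subunit genes were Wdr74 (ENSMUSG00000042729) at chr19:8735827-8740624 on the plus strand and Ddx56 (ENSMUSG00000004393) at chr11:6258919-6267772 on the minus strand.

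Sequence upstream of the start site was searched for short motifs of factors known to bind growth and housekeeping promoters. RefSeq promoters (GRCm38.p6) were available for 44 of the 49 members and for 11506 tested genes, and the 250 bases before the start were searched on both strands for 5 motifs. The ETS core CCGGAAG occurred in 13 of 44 members (29.5%), in 35.9% of the other ribosome biogenesis genes described below and in 14.5% of all tested genes. It was present in 4 of the 8 called members, namely Utp4, Rrp36, Ddx49 and Wdr74, whose 40-base windows are shown to let the flanks be compared. They lie at chr8:106893580-106893619 on the plus strand, chr17:46674341-46674380 on the minus strand, chr8:70302472-70302511 on the minus strand and chr19:8735795-8735834 on the plus strand. Each is written 5′ to 3′ on the strand of the gene, with the motif, or its reverse complement, in capitals. The Ddx49 motif lies 8 and 27 bases before its 2 RefSeq starts, but inside the Ddx49 gene as placed above from GENCODE. Utp4 holds a second ETS core, 19 bases upstream of its RefSeq start and outside the window shown.

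Utp4: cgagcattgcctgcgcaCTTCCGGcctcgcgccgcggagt
Rrp36: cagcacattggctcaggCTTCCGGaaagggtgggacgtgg
Ddx49: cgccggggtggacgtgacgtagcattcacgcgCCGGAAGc
Wdr74: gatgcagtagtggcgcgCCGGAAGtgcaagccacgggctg

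The canonical E-box CACGTG, the site bound by MYC with MAX, was in 3 of 44 members (6.82%), against 9.64% of all tested genes. It was present in Rrp7a, Utp18 and Nop2, of which Rrp7a was called. The Rrp7a site, at chr15:83122987-83123026 on the minus strand, lies 208 bases upstream of the start, and is printed because it is the E-box of a called member.

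Rrp7a: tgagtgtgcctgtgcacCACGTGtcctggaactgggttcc

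The GC box GGGCGG was in 72.7% of members and 62.1% of all tested genes, and CCAAT in 40.9% and 40.3%. Of the 8 called members, 5 held the GC box and 6 held CCAAT. The NRF1 motif was in none of the 44 members, against 1.73% of all tested genes. A match is a run of letters in the window and not evidence of binding.

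Transcript length was examined because log2 folds depended on it across the whole table. Over 15679 tested genes with a length, the rank correlation of log2 fold with transcript length was 0.24, and within single libraries the correlation of a gene's deviation with length was 0.27 and 0.13 in FLAG-Lhx1 embryos, against -0.25 and -0.13 in FLAG-Lhx1-mt embryos. The difference between replicates correlated with length at 0.11 for the FLAG-Lhx1 pair and at -0.10 for the FLAG-Lhx1-mt pair. Of the members, 19 lay in the shortest tertile of tested genes (up to 2109 bases), 17 in the middle tertile and 13 in the longest tertile (over 3806 bases). In the shortest tertile the median log2 fold was -0.39 for members and -0.14 for all genes, in the middle tertile -0.26 and 0.01, and in the longest tertile -0.29 and 0.14. All 13 long members had a negative log2 fold, against 35.1% of all long genes. The median of members was lower than that of all genes in each tertile, and 5 of the 8 called members were in the shortest tertile (26.3% of the members there). Of all genes, 8.68% were called in the shortest tertile, 5.13% in the middle and 4.75% in the longest.

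With the length trend of each library removed by offsets, the correlation over all tested genes was 0.01. The median log2 fold of members was then -0.27, and by tertile of length -0.23, -0.24 and -0.40. Calls were fewer: 2 members, Rrp7a (-0.71, adjusted p = 0.0306) and Rrp9 (-0.63, adjusted p = 0.0478), were called lower by edgeR, against 626 of all tested genes (3.96% called in either direction and 2.06% called lower). For Rrp36 the log2 fold became -0.52, for Ddx47 -0.47 and for Wdr74 -0.35, none of them called. Long members moved the other way, and Polr1a changed to -0.51 and Ncl to -0.39.

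**Figure D3:**
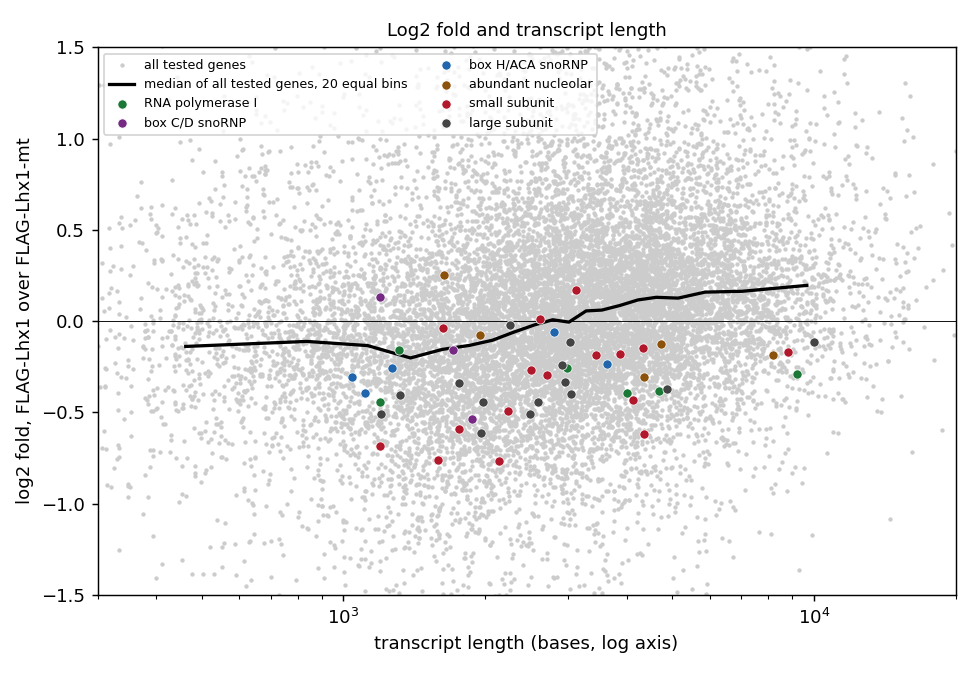
Each coloured point is 1 of the 49 factors and each grey point another tested gene. The horizontal axis is the length of the representative transcript in bases on a log scale, the vertical axis the log2 fold of FLAG-Lhx1 over FLAG-Lhx1-mt, and the black line the median of all tested genes in bins. The line rises with length, and most factors lie below it.

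Log2 folds of members were more closely ordered by GC content of the transcript than by its length, for which the rank correlation over members was 0.20. The rank correlation of log2 fold with GC content was -0.60 over the 49 members and -0.17 over all tested genes. Members in the lowest tertile of GC content (up to 47.12%) had a median log2 fold of -0.14, against 0.12 for all genes there. None of the 16 was called, against 5.26% of all genes there. Members in the middle tertile had -0.34, against -0.03, with 2 of 16 called (12.5%, against 5.91% of all genes there). Those in the highest tertile (over 53.28%) had -0.44, against -0.11, with 6 of 17 called (35.3%, against 7.39% of all genes there). Npm1, at 42.44% GC, and Rrp9, at 59.77%, stood near the ends of this range, while Fbl at 56.73% was the exception with a positive log2 fold. With offsets for both length and GC content, the correlation over members was -0.18, the medians by tertile were -0.26, -0.31 and -0.30, and 2 members were called by edgeR (Rrp7a and Utp15), against 4.22% of all tested genes. The points in each correlation share libraries and are not independent replicates.

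**Figure D4:**
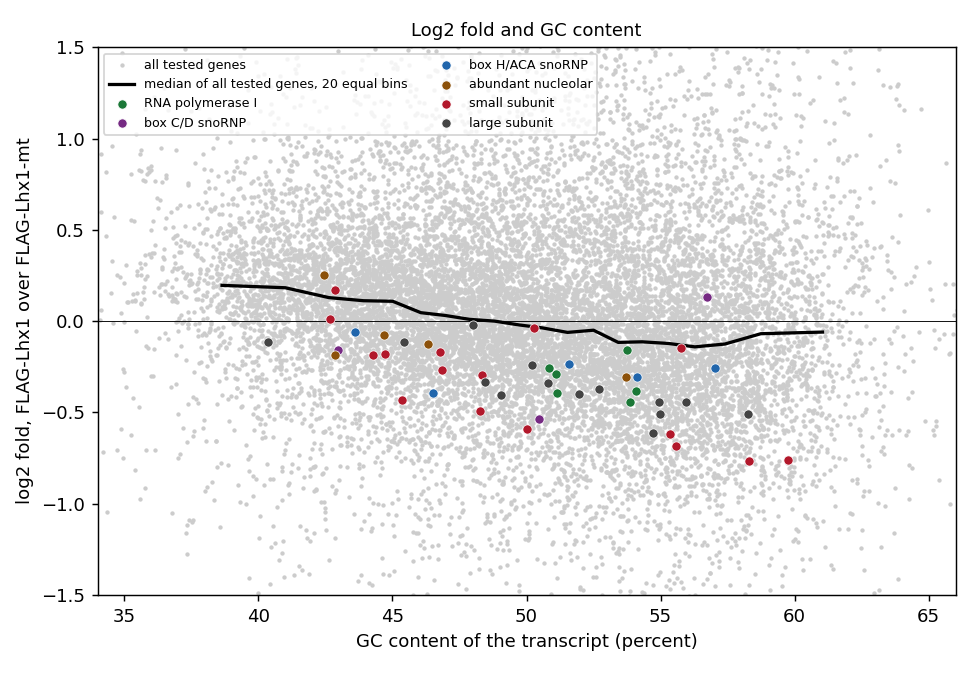
Each coloured point is 1 of the 49 factors by role, each grey point another tested gene, and the black line the median of all tested genes in bins. The horizontal axis is the GC content of the representative transcript in percent and the vertical axis the log2 fold of FLAG-Lhx1 over FLAG-Lhx1-mt. Factors with high GC content lie lowest, and the line falls less steeply than the factors do.

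Genes of the same pathway outside the list were examined next, from lists drawn up with earlier results known. Of 117 other ribosome biogenesis genes, 15 were called lower and 1 higher (13.7% called, against 6.17% of all tested genes). Their median log2 fold was -0.18, and 73.5% were negative, against 49.1% of all tested genes. With length offsets 10 were called, with length and GC offsets 8, with upper-quartile scaling 9, and without FLAG-Lhx1 replicate 1 or 2 the numbers were 8 and 4. In the fits with offsets and without a FLAG-Lhx1 replicate none of these was higher. The share of all tested genes called was 3.96% with length offsets, 4.22% with length and GC offsets and 5.48% with upper-quartile scaling. Among 44 further small subunit genes 6 were lower (13.6%, against 6.17% of all tested genes called). Noc4l, a nuclear scaffold of the small subunit, had 39.6 and 35.3 CPM in FLAG-Lhx1 embryos, against 85.2 and 69.0 CPM in FLAG-Lhx1-mt embryos (-1.04 ± 0.16, adjusted p = 0.00183), a larger difference than in any of the 49 members. Bud23, the methyltransferase of an 18S guanosine, had 39.7 and 38.7 CPM in FLAG-Lhx1, against 88.2 and 58.9 CPM in FLAG-Lhx1-mt (-0.90). Abt1, Imp4, Rcl1 and Nob1 were the others.

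Among 48 further large subunit genes 8 were lower and 1 was higher (18.8% called, against 6.17% of all tested genes). Eif6, which keeps the large subunit from joining too early, had 264 and 258 CPM in FLAG-Lhx1 embryos, against 464 and 382 CPM in FLAG-Lhx1-mt embryos (-0.70). Surf6 had 16.9 and 13.9 CPM in FLAG-Lhx1, against 26.2 and 29.4 CPM in FLAG-Lhx1-mt (-0.85). Npm3, a relative of Npm1, had only 2.25 and 1.32 CPM in FLAG-Lhx1, against 3.99 and 8.34 CPM in FLAG-Lhx1-mt (-1.77). Without FLAG-Lhx1-mt replicate 2 the log2 fold of Npm3 was -1.15 and not called (adjusted p = 0.0784, edgeR), and length offsets also ended the call (adjusted p = 0.0682). Gnl3l, a relative of Gnl3, was the gene called higher (0.57), though not with length offsets. None of 15 other genes of RNA polymerase I, its shared subunits and cofactors was called by edgeR, DESeq2 or voom (2 at an unadjusted p under 0.05, both lower, namely Polr2l at -0.57 and Polr2e at -0.44). Ruvbl2, a helicase that helps assemble snoRNPs, was the gene called lower of 11 assembly genes. It had 235 and 231 CPM in FLAG-Lhx1, against 377 and 350 CPM in FLAG-Lhx1-mt (-0.64). With length and GC offsets neither Ruvbl2 (adjusted p = 0.0639, edgeR) nor Eif6 (adjusted p = 0.0819) was called.

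Neighbouring pathways had medians nearer to 0, apart from the noncoding hosts of snoRNAs. Of 80 cytoplasmic ribosomal protein genes Rpl29 was called lower, with a median log2 fold of -0.06. These transcripts are short, and with length offsets the median was 0.07 and Rpl29 was not called (adjusted p = 0.104, edgeR). Of 14 RNA exosome genes, Exosc5 was lower at 48.4 and 57.9 CPM in FLAG-Lhx1 embryos, against 88.6 and 78.1 CPM in FLAG-Lhx1-mt embryos, C1d was higher at 330 and 347 CPM in FLAG-Lhx1, against 248 and 231 CPM in FLAG-Lhx1-mt, and the median was -0.06. Of 19 subunits specific to RNA polymerases II and III, Polr2c was lower, and the median was -0.02. Of 15 cell cycle genes Ccne1 was lower, and the median was 0.03. With length and GC offsets the calls of Exosc5, C1d, Polr2c and Ccne1 were lost, with adjusted p-values between 0.0661 and 0.258 (edgeR). Of 11 noncoding snoRNA hosts, Snhg6, Snhg15 and Epb41l4aos were called lower (27.3%, against 6.17% of all tested genes called), and the median was -0.55. With length offsets the median was -0.37 and Snhg15 (adjusted p = 0.0778, edgeR) and Epb41l4aos (adjusted p = 0.162) were not called. Snhg6 had 31.8 and 47.8 CPM in FLAG-Lhx1, against 83.3 and 89.9 CPM in FLAG-Lhx1-mt (-1.13).

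MYC proteins drive transcription of many ribosome biogenesis genes. Of 11 genes of the MYC network, Mycl and Mlx were called lower (18.2%, against 6.17% of all tested genes called). The median log2 fold was -0.13. Mlx was not called with length offsets (adjusted p = 0.0887, edgeR), upper-quartile scaling (0.064) or either FLAG-Lhx1 embryo left out (0.204 and 0.207). Mycl had 7.06 and 8.70 CPM in FLAG-Lhx1 embryos, against 17.3 and 25.9 CPM in FLAG-Lhx1-mt embryos (-1.46). Myc had 17.1 and 14.6 CPM in FLAG-Lhx1, against 17.5 and 24.2 CPM in FLAG-Lhx1-mt (-0.40, adjusted p = 0.308), and Mycn had 91.3 and 81.4 CPM in FLAG-Lhx1, against 74.8 and 77.5 CPM in FLAG-Lhx1-mt (0.18, adjusted p = 0.516). The p53 and 5S ribonucleoprotein genes, which respond when ribosome assembly is disturbed, had Phlda3 called lower among 13. Phlda3 was not called with length offsets (adjusted p = 0.0683, edgeR). The median of the 13 genes was -0.16, and with length offsets -0.28, near the -0.27 of the members in that fit.

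**Figure D5:**
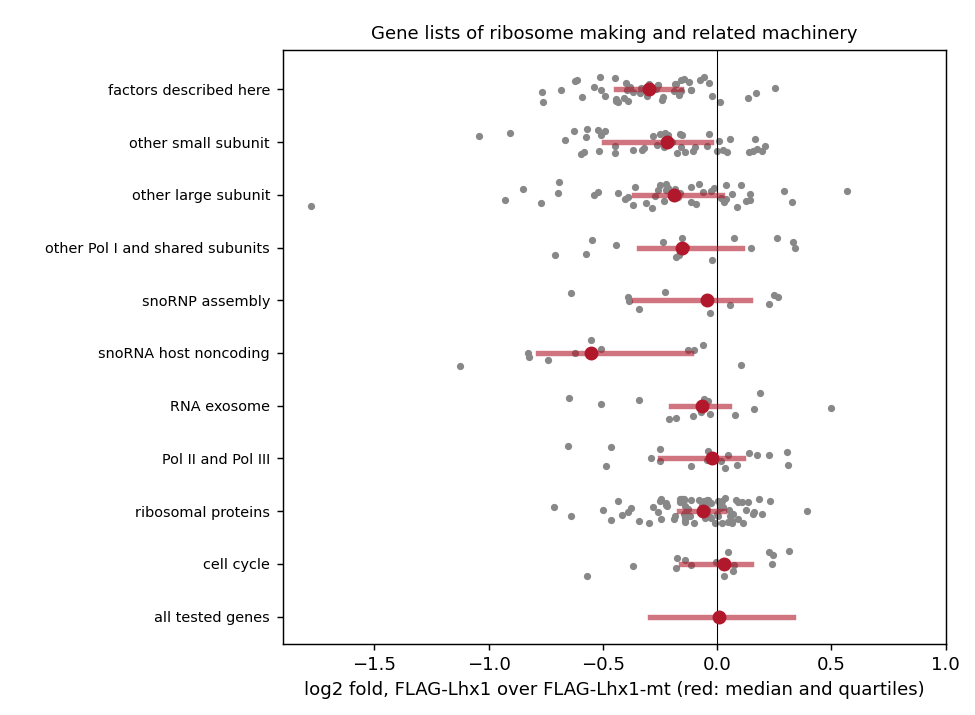
Each line is a gene list, with the 49 factors at the top and all tested genes at the bottom. Grey points are the log2 fold of FLAG-Lhx1 over FLAG-Lhx1-mt of single genes on the horizontal axis, and the red point and bar are the median and quartiles. The median of the 49 factors is -0.30 and that of cytoplasmic ribosomal proteins is -0.06.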

How the data were processed

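Single chimeric embryos (2 FLAG-Lhx1, 2 FLAG-Lhx1-mt) were sequenced as paired 100 bp reads without molecular identifiers, so counts include amplification copies and floors cover counting error only. The authors deposited raw counts per Ensembl gene, 1 table per embryo. Per the submitters' processing notes, STAR and featureCounts of Subread were used with GRCm38 (mm10). No version, annotation release or strand option is given in the sources used here. Counts were used as deposited. Symbols and transcript lengths came from GENCODE vM21, which matched 96.2% of identifiers. Identifiers without a match held 0.179 to 0.21% of the counts.

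The fit was edgeR 4.0.16 in R 4.3.3 (TMM, filterByExpr with a minimum count of 10, quasi-likelihood F test, Benjamini-Hochberg over 15822 genes, threshold 0.05). SE was taken as |log2 fold| divided by the root of F. CPM values are scaled by TMM. The edgeR p-values rest on the spread between these samples, with that of each gene drawn towards a trend over all tested genes. The residual degrees of freedom were 2 and the prior ones 13.4, so most of that spread was not measured on the gene itself. DESeq2 1.42.0, limma 3.58.1 voom, other scalings, no filter, length and GC offsets (natural splines with 4 degrees of freedom per library), a replicate block and leaving out each embryo were alternatives. The fit was tested on simulated data. The authors' replicates differed beyond counting noise (chi-square per degree of freedom of 48 and 31). Members and lists were chosen with earlier results of these data known. The genes named by rule are every called member, the member with the smallest p in each role without a call, 10 members picked for their role, up to 3 called genes of each other list by smallest p, Lhx1, Myc and Mycn. Values of further members and list genes were added after they were seen, to account for all members. A planned ranking of genes with the most similar pattern is not reported, since 4 embryos are too few for a correlation across samples.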

Additional observations from a re-analysis of the deposited data

How the results depend on the processing

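The direction of the members' median held under every alternative run, between -0.36 without the filter on low counts and -0.22. By edgeR 8 members were called lower as reported, with 6.17% of all tested genes called in either direction. That number was 3 with upper-quartile scaling (5.48% of all tested genes called) and 13 without the filter (4.41% of 32825 genes). It was 2 with length offsets (3.96%) and 2 with length and GC offsets (4.22%). With DESeq2's size factors it was 9 (6.68%), with the DESeq2 test 10 (7.6%) and with voom 8 (6.44%). For the other ribosome biogenesis genes the 16 calls became 9, 23, 10 and 8 under the first 4 of these alternatives. All calls numbered 976, against 626 with length offsets. Upper-quartile scaling moved the median of all genes to 0.06 and the share of calls that were higher to 54.4%, against 42.5%.

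Leaving out 1 embryo at a time gave 0 to 10 members called, 4 to 21 other ribosome biogenesis genes, 521 to 1648 genes in all, and a member median of -0.35 to -0.22. Without FLAG-Lhx1 replicate 2, 0 members were called by edgeR, limma-voom or DESeq2 (the last pair of fits was chosen after seeing the data), with 13 lower at an unadjusted p under 0.05. Without FLAG-Lhx1 replicate 1, 2 were called, Rrp9 and Rrp36. In all 4 of these fits 39 of the 49 members kept their sign, without a share of all tested genes to set beside it. Where 1 embryo was left in a group it was assumed to vary like the other group.

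The replicate numbers did not pair the embryos (correlation of replicate differences -0.0291). A replicate block gave 8 members, with Nop56 in and Ddx49 out, 16 other ribosome biogenesis genes and 1138 genes in all.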
